A study of Homo sapiens with 18 samples.

Results

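The genes that write and erase DNA methylation were examined in LNCaP cells, an established human line from prostate adenocarcinoma. The 8 genes were chosen by name from the 22336 genes of the mRNA-seq table: the DNA methyltransferases DNMT1, DNMT3A and DNMT3B, their catalytically inactive relative DNMT3L, UHRF1, and the dioxygenases TET1, TET2 and TET3. All 8 were in the table. The rule uses no measured value, but the genes were chosen with earlier results of these data known.

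DNMT1 copies methylation onto the new strand after DNA replication, and UHRF1 brings it there by binding hemimethylated CpG. DNMT3A and DNMT3B methylate CpG sites that carried no mark, and DNMT3L stimulates both, mainly in germ cells and early embryos. The TET enzymes oxidise 5-methylcytosine, which leads to its loss, and the balance of both groups is often disturbed in tumours. No DNA methylation was measured in these cells, so the data bear on the genes, not on the mark.

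The study had 18 libraries of this 1 cell line. WHG-STARR-seq, in which sheared genomic fragments on a plasmid drive their own transcription, had 1 input library and 2 output replicates from cells harvested 72 h after electroporation. ATAC-seq, which marks accessible DNA by transposon insertion, had 3 libraries from cells given trichostatin A (TSA) at 100 ng/ml for 24 h and 3 from cells given the solvent DMSO (vehicle) for 24 h. TSA inhibits histone deacetylases. The mRNA-seq had 3 TSA, 3 DMSO and 3 untreated libraries. The values used were pooled or averaged over libraries by the authors, with none for a single library. Depth per library and spread between replicates were therefore unknown, every comparison below is a description without a test, and no change of mRNA under TSA is given.

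DNMT1 had the highest mRNA level per kb among the 8 genes, and TET1 the lowest. In such bulk samples, fewer expressing cells and less RNA per cell cannot be told apart. The deposited level is an average in log2 CPM, counts scaled to library size, that covers treated and control libraries together, and whether it includes the untreated ones is not given in the sources used here. To compare genes, it was divided by the length of all annotated exons of the gene. DNMT1 was at 3.72 log2 CPM per kb, or 97.7 CPM for the whole gene, which placed it at percentile 76.6 of the 21524 genes with an annotated start. The maintenance methyltransferase was thus the only member in the upper quartile of genes, which began at 3.60 log2 CPM per kb.

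The next 5 genes lay close together, around the median of all genes at 1.42 log2 CPM per kb. TET3 was at 1.94 and TET2 at 1.76 log2 CPM per kb. UHRF1, the partner of DNMT1, was at 1.14 log2 CPM per kb. The de novo enzymes followed, with DNMT3A at 1.05 and DNMT3B at 0.88 log2 CPM per kb. Neighbours in this run of 5 differed by 0.09 to 0.62 on the log2 scale. Without a spread between libraries, it cannot be said whether any of these neighbours differ, and with division by the longest transcript TET2 stood above TET3.

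The remaining 2 genes were low. DNMT3L, whose known sites of action are germ cells and embryos, had −1.64 log2 CPM per kb, or 0.549 CPM for the whole gene. TET1 had −2.35 log2 CPM per kb, or 1.89 CPM for the whole gene, at percentile 22.7 of all genes. The step from DNMT3B down to DNMT3L was 2.52 on the log2 scale, a 5.74-fold difference, and the step from DNMT1 down to TET3 was 1.78, a 3.44-fold difference. TET1 was below DNMT3L only per kb, since its exons sum to 9.61 kb against 1.71 kb. Of the exon bases of DNMT3L, 7.56% are shared with an annotated antisense RNA and 30.1% with an annotation artifact, and counting by strand was not given in the sources used here, so its low level is uncertain to that extent.

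**Figure D1:**
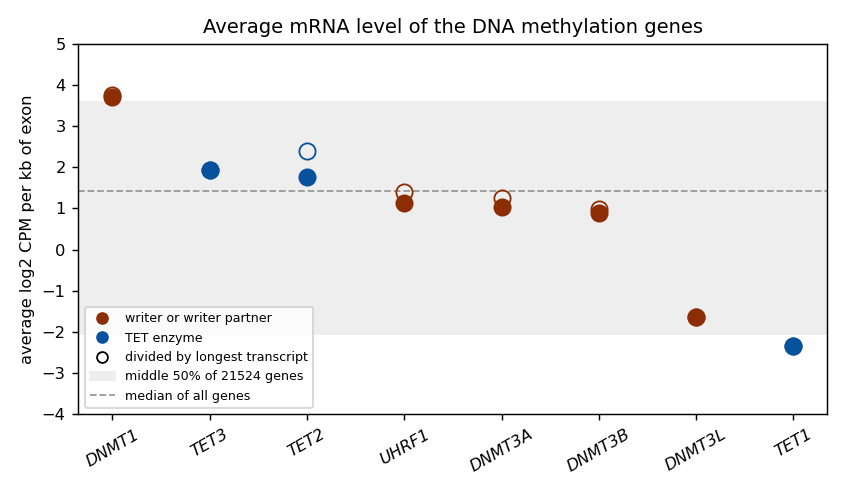
Average mRNA level of the 8 genes as log2 CPM per kb of exon (filled, all annotated exons; open, longest transcript), with the quartile range of all genes in grey and their median at 1.42 as a dashed line. DNMT1 lies above the grey band, TET1 below it and the other genes within it, with DNMT3L at −1.64 near the lower edge.

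Genes that act beside the writers and erasers were mostly expressed at higher levels per kb. The lists of related genes held 44 names, of which 43 were matched in the table, and their median was 3.11 log2 CPM per kb against 1.09 for the 8 genes. The 8 readers of methyl-CpG had levels between 1.71 and 3.61 log2 CPM per kb, so every reader was above the median of all genes. The 10 genes of base excision, which removes the oxidised bases that TET enzymes leave, had a median of 3.10 log2 CPM per kb. Across all lists the highest were APEX1, the endonuclease that cuts abasic sites, at 7.25, AHCY, which clears the product of methyl transfer, at 6.86, and IDH1, which makes the 2-oxoglutarate that TET enzymes need, at 6.62 log2 CPM per kb. Among the lowest were CXXC4, a CXXC-domain partner of TET2, at −3.85, and ZFP57, which protects imprinted methylation, at −3.69 log2 CPM per kb. Before division by length, CXXC4 was at −0.876 log2 CPM and ZFP57 at −2.62, the lowest value of the table. The value per kb of ZFP57 is therefore that floor divided by its exon length, and the order of these genes is not a measured difference. None of these genes had a start within 50 kb of a member.

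The luminal markers of LNCaP cells were expressed in the same table, and so were a few markers of other cell types. All 9 luminal prostate markers were between 4.41 and 11.17 log2 CPM, with FOLH1, the prostate-specific membrane antigen, the highest. Of 12 markers for basal, fibroblast, leukocyte and endothelial cells, PTPRC, CD3E, TP63, PECAM1 and CDH5 were the lowest, at −2.62 to −1.89 log2 CPM. The lowest value of the table is −2.62. KRT14, PDGFRB and COL1A2 were at −0.864, −0.511 and 0.370 log2 CPM. The basal keratin KRT5 at 6.23 and the collagen gene COL1A1 at 6.77 log2 CPM were the highest of the 12. Both were above the luminal KLK2 at 4.41 and TMPRSS2 at 6.00 log2 CPM. The macrophage marker CD68 at 3.17 and the endothelial VWF at 2.42 log2 CPM followed. The average includes TSA-treated cells. In which condition these markers of other cell types were expressed, and their part in the members' levels, was not tested.

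The promoters of the members held between 10 and 46 CpG dinucleotides, the methylated dinucleotide of mammalian DNA. In windows from 250 bases before to 50 bases after the main start, the median over 21524 genes was 22 CpG dinucleotides and a GC content of 62.7%. DNMT3A with 46 CpG and TET3 with 45 CpG were at percentiles 96.2 and 95.5. UHRF1 had 36, TET2 35, and DNMT1 and DNMT3B 30 CpG each. DNMT3L had 13 CpG in a window of 68.7% GC, with an observed to expected ratio of 0.45, and TET1 had 10 CpG at 54.3% GC, with a ratio of 0.46. Both ratios, and that of 0.69 for DNMT3B, were below the median of 0.75 over all promoters.

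The following runs of 200 bases end directly before the outermost start in the start cluster and set a promoter dense in CpG beside others that hold few. They were read from the hg19 genome on the strand of the gene, with CpG dinucleotides in capitals. TET3 (chr2:74211837-74212036, plus strand) holds 32 of them. TET1 (chr10:70319894-70320093, plus strand) holds 9, and DNMT3L (chr21:45682100-45682299, minus strand) 1. The TET3 and TET1 runs lie inside their 300-base windows. The outermost start of DNMT3L lies upstream of its main start, so its run shares no base with its 300-base window. That window (chr21:45681731-45682030) held 13 CpG, so the DNMT3L run is placed unlike the others.
TET3: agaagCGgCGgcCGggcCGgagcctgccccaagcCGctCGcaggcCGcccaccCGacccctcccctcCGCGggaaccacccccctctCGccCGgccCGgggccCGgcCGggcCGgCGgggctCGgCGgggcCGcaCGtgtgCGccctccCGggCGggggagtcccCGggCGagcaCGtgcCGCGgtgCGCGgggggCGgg
TET1: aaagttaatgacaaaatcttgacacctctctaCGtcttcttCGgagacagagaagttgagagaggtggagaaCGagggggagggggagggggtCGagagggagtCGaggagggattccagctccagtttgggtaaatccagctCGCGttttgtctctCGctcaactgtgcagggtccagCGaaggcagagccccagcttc
DNMT3L: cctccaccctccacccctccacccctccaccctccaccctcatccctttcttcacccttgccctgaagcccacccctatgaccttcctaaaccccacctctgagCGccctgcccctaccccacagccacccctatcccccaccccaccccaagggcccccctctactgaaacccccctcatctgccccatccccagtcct

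The capitals are spread along the whole TET3 window and thin out in TET1. In DNMT3L, a run rich in C but poor in CpG, they are almost absent.

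Short motifs were searched in the 300-base promoter windows on both strands, as exact letters, and matches of different motifs may overlap. The GC box (GGGCGG), which SP1-type factors bind, occurred in 6 of 8 promoters, against 57.5% of all promoters. DNMT1 and TET1 were the promoters without it, and DNMT3B held 7 copies. The CCAAT box (CCAAT) occurred in DNMT3L and UHRF1, against 35.7% of all promoters. An E2F match (GGCGGGAA), of the factors that drive S-phase genes, occurred in UHRF1 alone, against 4.02% of all promoters. An NRF1 match (GCGCATGC) occurred in DNMT1 alone, against 4.07%, and an E-box (CACGTG) in TET3 alone, in 2 copies, against 8.42% of all promoters. The ETS (CCGGAAGT), AP-1 (TGANTCA) and FOXA (TGTTTAC) letters were in none of the 8 windows, against 5.63%, 5.71% and 2.54% of all promoters.

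**Figure D2:**
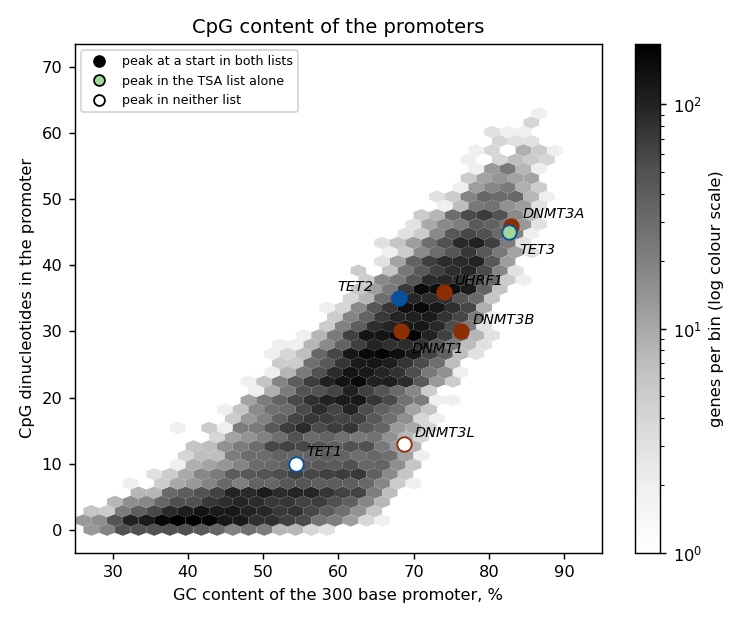
GC content and number of CpG dinucleotides in the 300-base promoter of each gene, with all 21524 genes as grey hexagons (log colour scale). The 2 promoters with no ATAC peak, TET1 with 10 and DNMT3L with 13 CpG, lie below the other 6, which hold 30 to 46.

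Accessibility at the starts was read from the peak lists that the authors called with Fseq on the pooled libraries of each condition. In vehicle, 5 of the 8 genes had a peak within 1 kb of a start: DNMT1, DNMT3A, DNMT3B, UHRF1 and TET2. Of all genes, 56.0% had one. Under TSA, TET3 joined them, making 6 of 8, against 60.3% of all genes. TET1 and DNMT3L, the genes with the lowest levels and fewest promoter CpG, had a peak at a start in neither list, as did 38.3% of all genes. Among genes in the same quintile of mRNA level as TET1 and DNMT3L, 55.3% had no peak in either list. With 8 genes, these counts were close to the background.

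A peak under TSA alone, the pattern of TET3, was found for 5.62% of all genes. The TET3 site (chr2:74210647-74212513) spans the start and covers 1867 bases. Its score in the TSA list was 0.0413, at percentile 13.6 of that list, whose lowest score was 0.0377. The lowest score in the vehicle list was 0.0390, so a signal just under that limit would have been left out of the vehicle list. Averaged over both conditions, the site had 4.43 log2 CPM, at percentile 72.5 of the 51909 merged sites, without division by site length. By its Fseq score, though not by this count, the site lay close to the threshold of peak calling in TSA-treated cells. With only the top 20000 peaks of each list it was lost. Among genes in the same quintile of mRNA level as TET3, 30.5% had no peak in either list and 5.30% had one under TSA alone.

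Within 50 kb of the starts there were 23 merged ATAC sites. Of these, 18 were found in both lists, which is 78.3%, against 52.6% of all merged sites. In the TSA list alone there were 4 sites, or 17.4%, against 25.9% of all sites. In the vehicle list alone there was 1 site, or 4.35%, against 21.6%. The shares over all sites, here and below, were not limited to sites within 50 kb of a gene start. The 23 sites were, and many of them lay within 1 kb of a start of some gene, so the compared sets differ in kind. The TSA-only sites were the TET3 start, 1 site at 4.86 kb downstream of the nearest UHRF1 start, 1 at 30.9 kb upstream of DNMT3A and 1 at 45.9 kb upstream of DNMT3B. The vehicle-only site lay 18.7 kb upstream of DNMT3B, but only 0.175 kb from a start of COMMD7, and its score was at percentile 4.60 of the vehicle list.

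At the sites found in both lists, scores were compared as percentiles within each list, since the scaling between conditions is not given. Of the 18 shared sites, 12 ranked higher under TSA, against 56.4% of all 27288 shared sites. With the log2 ratio of the scores less its median over all shared sites, 10 of 18 were above 0. The median difference in percentile, TSA minus vehicle, was 5.74 points at the members' sites and 1.41 points at all shared sites.

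The start sites of the 5 genes open in both conditions differed in direction between the conditions. DNMT3A (chr2:25562229-25566225), the longest of them at 3997 bases, was at percentile 72.4 in vehicle and 79.6 under TSA. DNMT3B was at 55.3 and 60.4. UHRF1 (chr19:4908694-4911804) was at 66.0 in vehicle and 71.9 under TSA. DNMT1 (chr19:10304544-10306132) was lower under TSA, at percentile 57.3 against 69.6, and so was TET2 (chr4:106067214-106069340), at 75.3 against 81.6. The middle 50% of all shared sites differed by −7.29 to 12.9 points, so the DNMT1 start was the only one of the 5 outside that range.

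Differences in rank were larger at some intronic sites of DNMT3A. An intronic site (chr2:25517289-25518627) was at percentile 18.01 in vehicle and 73.0 under TSA, a difference of 55.0 points. A larger upward difference was found at 1.27% of all shared sites. The vehicle score of this site was 0.0439, near the lowest of that list at 0.0390. Its log2 ratio of the scores less the median was 0.885, against an upper quartile of 0.258 over all shared sites. A second intronic site (chr2:25532994-25536484) was at percentile 66.3 in vehicle and 86.9 under TSA. The 2 sites upstream of DNMT3A that were found in both lists ranked 6.64 and 3.87 points higher under TSA. All 5 shared sites of DNMT3A thus ranked higher under TSA. Near DNMT1, a site of the neighbouring S1PR2 gene (chr19:10340810-10342482), 0.361 kb from its start, was at percentile 7.14 in vehicle and 41.3 under TSA. Its vehicle score of 0.0407 was close to the lowest of that list, 0.0390. Its log2 ratio of the scores less the median was 0.283, against an upper quartile of 0.258 over all shared sites. The nearest sites to TET1 lay 33.5 kb upstream, 0.691 kb from a start of SLC25A16, and 40.0 kb downstream in its own intron, and they ranked 11.2 and 8.07 points higher under TSA. Their log2 ratios of the scores less the median were 0.414 and −0.0342, so the direction at the intronic site depended on the measure. A site upstream of UHRF1 (chr19:4866634-4868217) and a site downstream of DNMT3L (chr21:45658966-45663256) ranked 5.71 and 5.77 points higher under TSA. The remaining shared sites away from the starts ranked lower under TSA. They were an upstream site of UHRF1 (chr19:4860945-4861716), with a difference of −9.48 points, 1 downstream of DNMT3B and near MAPRE1 with −7.16, an intronic site of TET2 (chr4:106113858-106114593) with −6.35, and 1 upstream of DNMT3L and near PFKL with −1.44 points.

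**Figure D3:**
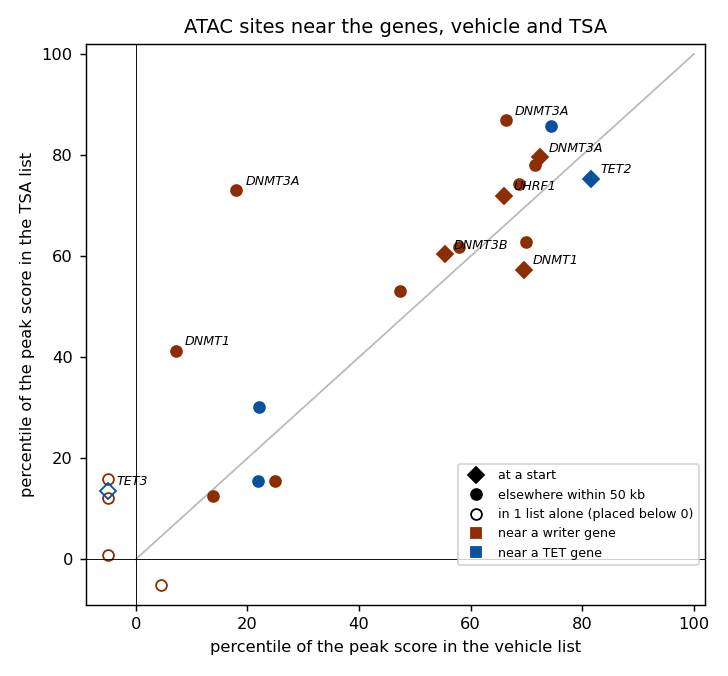
Percentile of the Fseq score in the vehicle list (x) and the TSA list (y) for the 23 merged sites within 50 kb of the genes, with sites of 1 list alone drawn beyond the axis lines and the diagonal in grey. The DNMT3A intronic site at percentiles 18.01 and 73.0 lies farthest above the diagonal, and the TET3 start lies among the sites of the TSA list alone.

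STARR-seq enhancers near the members numbered 52, of 94527 in all. An enhancer was assigned to a gene where its centre lay within 50 kb of any annotated start, and its strength is the MACS2 fold of pooled output over input at the summit. Counting intervals of 95% below cover the output fragments only, 26 to 218 at these summits, and no spread between replicates. Enhancers that overlap a DNase I site of LNCaP cells are called open, the others closed, as the authors split their lists. Of the 52, 19 were open, or 36.5%, against 20.1% of enhancers within 50 kb of any gene. DNMT3A supplied 11 of these 19, and outside it 8 of 36, or 22.2%, were open.

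The genes differed in how many enhancers they had. DNMT3A had 16 and DNMT3B 11, at percentiles 99.7 and 98.0 of all genes, whose median was 4 and whose quartiles were 3 and 6. TET1 had 6, TET3 5, UHRF1 and TET2 4 each, and DNMT1 and DNMT3L 3 each. Annotated starts of DNMT3A lie far apart, so that its window was 190 kb long, but per 100 kb it still had 8.40 enhancers, at percentile 96.3, against a median of 4.0. DNMT3B had 9.33 per 100 kb. With the start of the longest transcript alone, DNMT3A had 10 and DNMT3B 9, at percentiles 98.8 and 97.1. For 27 of the 52 enhancers the member itself had the nearest start, and 24 lay in an intron of the member.

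DNMT3A carried both the most and the strongest enhancers of the 8 genes. Of its 16, 12 lay inside the gene, and 11 were open, a number that 24 of the 21524 genes reached in windows built the same way. Of these 11, only 1 lay in a vehicle ATAC peak, against 37.8% of all open enhancers. Their DNase I scores ranged from percentile 13.0 to 96.0 of open enhancers. With the start of the longest transcript alone 6 of 10 were open, and within 25 kb 2 of 5. The strongest (chr2:25528489-25529409) had a fold of 7.72 (interval 6.73 to 8.81, 218 output fragments), and the next (chr2:25500661-25501479) a fold of 7.16 (5.98 to 8.51, 127 output fragments). They lay in introns 35.8 and 63.7 kb downstream of the main start, at ranks 1908 and 2272 of all enhancers. A start of MIR1301 was nearer to the strongest, at 22.6 kb. The other 14 had folds between 1.90 and 2.93, and their intervals did not reach those of the first 2.

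The strongest DNMT3A enhancers in the plasmid assay were not the most accessible ones in their chromosomal place. The 2 strongest enhancers overlapped DNase I sites with scores of 0.0953 and 0.157, at percentiles 47.1 and 59.6 of open enhancers, and no ATAC peak in either list. The enhancer at chr2:25517995-25518510 had a fold of 2.93 (2.32 to 3.65), but its DNase I score of 0.865 was at percentile 96.0, and it lay in the ATAC site that ranked 55.0 percentile points higher under TSA. A further enhancer (chr2:25595818-25596457), with a fold of 2.26, lay in the TSA-only site upstream of the gene.

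The 240 bases around the summits of the 2 strong DNMT3A enhancers are shown because they carry the largest folds near any member. They were read from hg19, plus strand, at chr2:25528745-25528984 and chr2:25500917-25501156, with CpG dinucleotides in capitals.
DNMT3A enhancer of 7.72-fold: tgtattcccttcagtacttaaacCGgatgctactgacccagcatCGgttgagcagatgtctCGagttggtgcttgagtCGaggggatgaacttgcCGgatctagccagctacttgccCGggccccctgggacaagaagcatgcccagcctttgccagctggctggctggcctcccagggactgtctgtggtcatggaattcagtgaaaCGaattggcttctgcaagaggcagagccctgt
DNMT3A enhancer of 7.16-fold: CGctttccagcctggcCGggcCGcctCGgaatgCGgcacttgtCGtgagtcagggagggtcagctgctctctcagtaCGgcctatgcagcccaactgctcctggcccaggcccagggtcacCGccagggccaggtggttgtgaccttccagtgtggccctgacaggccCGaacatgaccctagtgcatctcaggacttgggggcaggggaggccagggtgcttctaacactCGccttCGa

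The first window holds 7 CpG at 56.2% GC, the second 11 CpG at 65.0% GC. The second holds an AP-1 match, and the first a CCAAT match. AP-1 letters were in 4 of the 16 DNMT3A enhancers, or 25%, and in 20.4% of all enhancers, searched over their whole and differing lengths. CCAAT letters were in 7 of the 16, or 43.8%, and in 55.7% of all enhancers. The median GC content of the 16 was 56.1%, against 57.9% for open and 46.1% for closed enhancers overall.

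Of the 11 DNMT3B enhancers 2 were open, a share near the 20.1% over enhancers close to any gene. Of the 11, 6 had folds between 3.62 and 4.71, above the median of 3.01 for enhancers near any gene. The strongest, closed and 27.6 kb upstream, had a fold of 4.71 (3.49 to 6.21), and a start of COMMD7 was nearer to it, at 8.63 kb. DNMT3B itself had the nearest start for only 4 of the 11. The enhancer at the DNMT3B start was open, with a fold of 4.31 (3.37 to 5.43), a DNase I score of 0.725 at percentile 93.8, and a peak in both ATAC lists. It was the strongest of the 3 enhancers within 1 kb of a member's start.

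The other start enhancers belonged to DNMT1 and TET2. At DNMT1 (chr19:10305282-10305907) the fold was 2.75 (2.195 to 3.41), the region was open and in a peak of both lists, and it held 66 CpG. At TET2 (chr4:106068254-106068733) the fold was 2.64 (1.76 to 3.82) from 26 output fragments, the fewest among the 52. It was closed by the DNase I list but lay in an ATAC peak of both conditions, so the 2 accessibility assays differed there. Over all enhancers 1.68% of closed ones lay in a vehicle peak.

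Of the 15 enhancers near the TET genes 1 was open, against 20.1% near any gene. TET2 had none open, and its strongest, 46.6 kb upstream, reached a fold of 5.93 (4.51 to 7.65), at percentile 95.9 of all enhancers. An intronic one at 14 kb (chr4:106081790-106082292) had a fold of 4.36 (3.15 to 5.90). TET3 had 5 closed enhancers with folds from 2.28 to 2.88, the strongest in an intron (chr2:74263971-74264450). TET1 had 6, none within 25 kb of its start, with folds from 2.96 to 4.21. The strongest (chr10:70289637-70290249) was its 1 open enhancer, with a DNase I score of 0.0391 at percentile 8.46, and it lay 2.66 kb from SLC25A16 and 30.2 kb from TET1.

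UHRF1, DNMT1 and DNMT3L had 4, 3 and 3 enhancers, near the median of 4 over all genes, and none above 3.16-fold. Of the 4 of UHRF1, 3 were open, with folds from 2.37 to 3.16. The strongest (chr19:4895357-4896003) lay 7.41 kb upstream of the nearest UHRF1 start and 7.20 kb from a start of ARRDC5. The strongest of DNMT1 (chr19:10260836-10261558), closed and in an intron, had a fold of 3.00 (2.398 to 3.70), close to that of its start enhancer. It lay 30.6 kb from a start of EIF3G and 44.4 kb from the nearest DNMT1 start. The strongest of DNMT3L (chr21:45720433-45721107), open and with a fold of 2.99, lay 0.781 kb from a start of PFKL and 38.7 kb from DNMT3L. For none of the 3 enhancers assigned to DNMT3L was DNMT3L the nearest gene.

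**Figure D4:**
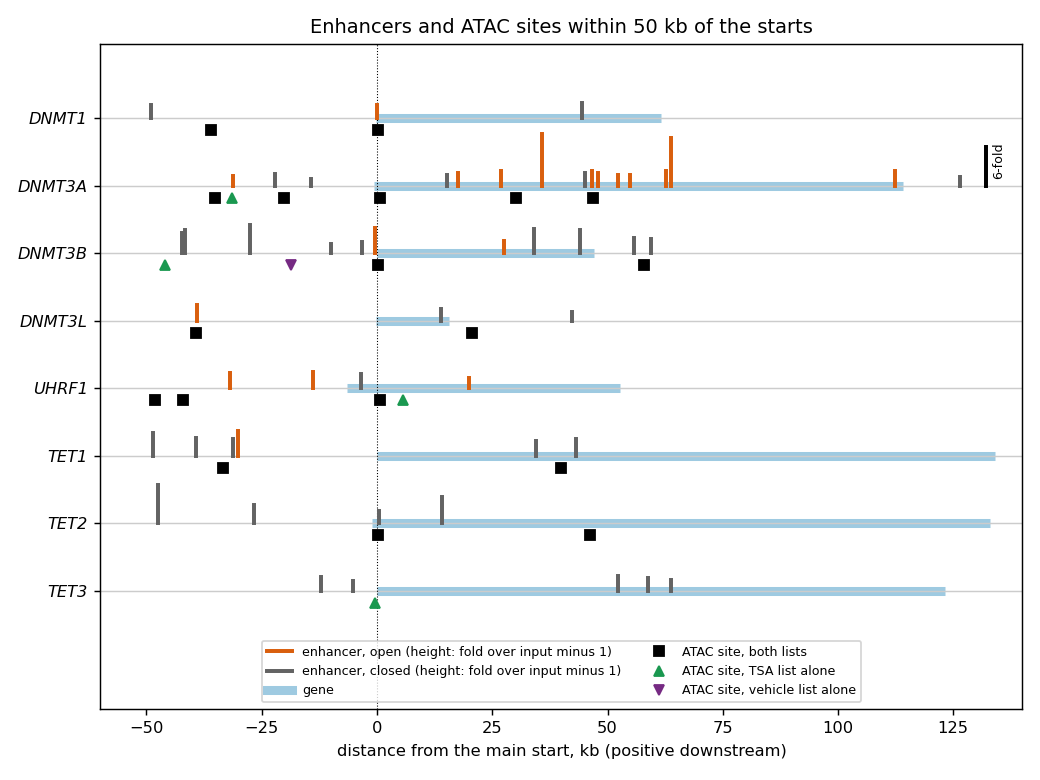
Position of enhancers (bars, height is the fold over input minus 1), ATAC sites (symbols below each line) and gene bodies (blue) in kb from the main start of each gene. Most open enhancers of DNMT3A, with the 2 tall bars of 7.72 and 7.16-fold, lie along its introns, while TET2 and TET3 have closed enhancers only.

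**Figure D5:**
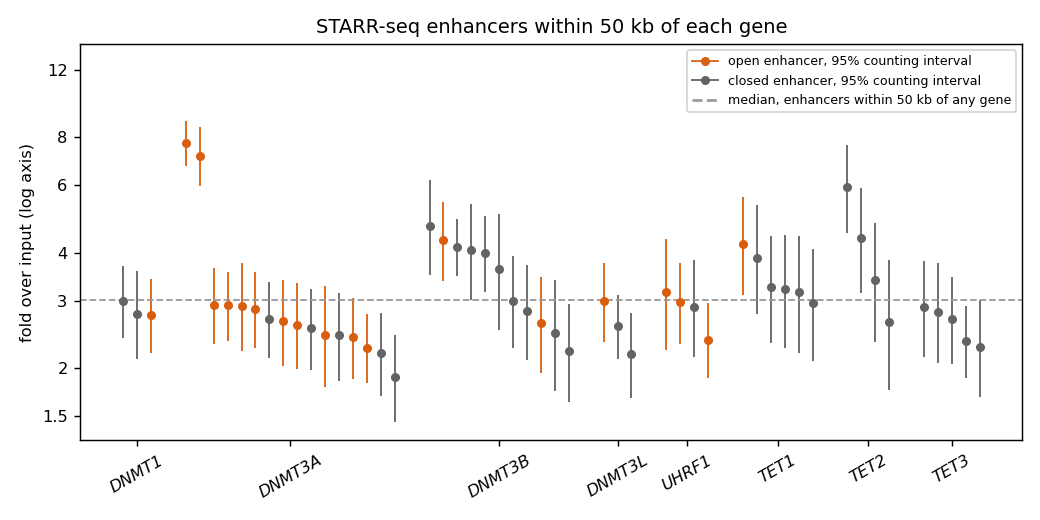
Fold over input of the 52 enhancers, ordered within each gene, with 95% counting intervals of the output fragments on a log axis. The 2 strongest DNMT3A enhancers stand apart from its other 14, which lie at 1.90 to 2.93, and the dashed line marks the median of 3.01 for enhancers near any gene.

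As a group, the members' enhancers were not stronger than others, with a median fold of 2.89 against 3.01 within 50 kb of any gene. Open ones had a median of 2.91 and closed ones of 2.88. In an ATAC peak lay 5 of the 52 in vehicle, or 9.62%, against 9.51% of enhancers within 50 kb of any gene. Under TSA 6 of the 52 did, against 10.9%. Of the 23 ATAC sites, 6 held an enhancer, or 26.1%, against 14.8% of all merged sites, which were not limited to sites near a gene start. The GC content of open and closed enhancers of the members had medians of 57.5% and 48.1%.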

How the data were processed

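Reads were aligned to hg19 by the authors, with Bowtie, with cutadapt and Bowtie2 for ATAC-seq reads left unmapped, and with TopHat for mRNA-seq. Versions were not given in the sources used here. For STARR-seq, the authors removed duplicates by Picard, combined the 2 output replicates and ran MACS2 with the input as control at a q-value under 0.05, and the deposited lists give a fold (a ratio of output over input), a −log10 p-value and a −log10 q-value for each enhancer. The deposited list of open enhancers also gives the score of the DNase I site that the authors matched. For ATAC-seq, the authors called peaks with Fseq on the pooled libraries of each condition, and the deposited lists give an Fseq signal score for each peak. The deposited gene and merged-site tables give an average in log2 CPM over libraries, from the authors' edgeR fit. They also hold the authors' own comparison of TSA with vehicle (log2 fold change, likelihood ratio, p-value and, for sites, q-value), which was not used here.

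Start sites came from basic GENCODE transcripts on GRCh37, and symbols were matched directly or through RefSeq synonyms. The main start is that of the MANE, otherwise canonical, otherwise longest transcript. The fragment count of the output at a summit was derived from the fold and −log10 p-value, to within 0.1 of a whole fragment for all 94527 enhancers, and gave exact Poisson intervals of the fold. PCR duplicates and replicate spread are not covered. The recovery was tested on simulated data. Python 3.11.15, pandas 2.3.3, NumPy 2.4.6, SciPy 1.17.1, pysam 0.24.0, samtools 1.23.1 and matplotlib 3.10.9 were used.

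Every member was named, with its strongest enhancer and those within 1 kb of a start, and of the related genes the highest 3 and lowest 3 per kb, of which 1 is not reported here. Other sites and enhancers were named after their values were seen. The members and lists were chosen with earlier results of these data known. Alternatives were the distance, the set of starts, the q-value limit, the peak window, the number of peaks, the overlap, the length used and the definition of open chromatin. 1 listed alias of a related gene was not matched.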

Additional observations from a re-analysis of the deposited data

How the results depend on the processing

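The number of enhancers assigned to the members depends on its limits: 52 at 50 kb became 19 at 25 kb, 89 at 100 kb and 20 with a q-value under 1e-10. It was 41 with the start of the longest transcript alone, 52 when any base of the enhancer had to lie within 50 kb, 52 with a q-value under 0.01 and 48 under 1e-05. The open share of 36.5% was 36.8% at 25 kb and 38.2% at 100 kb. It was 22.2% without DNMT3A, an alternative chosen after seeing the data, and 9.62% where open meant a vehicle ATAC peak, for which the share near any gene was 9.51%. The 5 members with a start peak in vehicle were the same with windows of 500 bases and 2 kb and with the top 20000 peaks, and under TSA only the last setting changed the 6 members, by losing TET3. Sites found in both lists numbered 18 of 23, also with an overlap of 50% of the shorter peak, and 11 of the 13 that remained with the top 20000 peaks. In the order of mRNA levels, 6 of 8 genes kept their rank with the longest transcript, and 2 with no division by length. Motif matches had no alternative. No paired analysis was possible because the values used are not given by library. Depth of the libraries is unknown, and the peak lists hold only peaks above a minimum score, so a missing peak does not show closed DNA.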
